A study of Mus musculus with 72 samples.

Results

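This comparison set the epidermal transcriptome of mice in which the core clock factor Bmal1 was restored by Cre under the keratin 14 promoter beside that of mice with Bmal1 in all tissues, at the third of 6 time points of the day. It rests on 8 of the 72 RNA-seq libraries of the series, chosen by their titles, which are 4 of the rescue genotype (RE) and 4 of wild type (WT) at time point 3. WT mice carried K14-Cre, and RE mice carried Bmal1-stopFL together with K14-Cre. Mice with Bmal1-stopFL and no Cre (KO), the genotype from which RE was derived, are given beside them. All were female C57BL/6 mice of 8 weeks, kept in 12 h of light and 12 h of darkness, with 4 mice per genotype and time point. The tissue was interfollicular epidermis, the epidermis between the hair follicles, of back skin. The labels number the time points and give no clock hours.

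Several features limit these groups as models. The keratin 14 promoter is active in basal keratinocytes of the epidermis and of other stratified epithelia, so Cre acts in those cells and their progeny. Langerhans cells, T cells and melanocytes, which also live in the epidermis, do not derive from them. Cre was present in WT and RE and absent from KO. The stop cassette sits in the Arntl gene, and the counts are summed over a gene's exons, so transcripts with and without the cassette are not separated. A lower level in bulk tissue can mean fewer cells of a type or less RNA per cell, which cannot be told apart here.

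The mammalian clock is a feedback loop. BMAL1, encoded by Arntl, pairs with CLOCK or NPAS2 and activates genes through E-boxes, among them the Per and Cry genes, whose proteins then block the pair. The same pair activates Nr1d1 and Nr1d2, which encode REV-ERB alpha and REV-ERB beta, and these nuclear receptors repress Arntl, Npas2 and Cry1 at response elements that ROR receptors use for activation. In skin the clock gives keratinocytes a daily order of division, metabolism and DNA repair. Clock genes therefore fall in 2 sets that peak at opposite times of day, with Arntl and Npas2 in one and Nr1d1, Dbp, Tef and Per3 in the other.

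The promoters of 4 clock genes are shown to place these elements beside the values that follow. Arntl and Leo1 are the 2 genes that passed the test below, and Tef and Ciart are outputs of the activating arm whose levels lay lower in all 3 RE libraries. Each sequence is from RefSeq on GRCm38.p6 and runs from 250 bases before to 50 bases after an annotated start, 300 bases in all, on the gene's own strand. Capitals mark AGGTCA, the core letters of the element that ROR and REV-ERB receptors bind, in Arntl and Leo1, and CACGTG, the E-box, in Tef and Ciart. The windows are chr7:113207261-113207560 on the plus strand for Arntl, chr9:75441274-75441573 on the plus strand for Leo1, chr15:81802423-81802722 on the plus strand for Tef, and chr3:95882179-95882478 on the minus strand for Ciart.
Arntl: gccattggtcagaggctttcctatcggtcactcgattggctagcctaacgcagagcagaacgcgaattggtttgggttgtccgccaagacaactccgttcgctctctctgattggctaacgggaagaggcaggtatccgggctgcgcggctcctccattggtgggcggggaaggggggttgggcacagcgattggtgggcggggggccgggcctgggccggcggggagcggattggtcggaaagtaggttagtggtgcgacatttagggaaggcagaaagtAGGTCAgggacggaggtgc
Leo1: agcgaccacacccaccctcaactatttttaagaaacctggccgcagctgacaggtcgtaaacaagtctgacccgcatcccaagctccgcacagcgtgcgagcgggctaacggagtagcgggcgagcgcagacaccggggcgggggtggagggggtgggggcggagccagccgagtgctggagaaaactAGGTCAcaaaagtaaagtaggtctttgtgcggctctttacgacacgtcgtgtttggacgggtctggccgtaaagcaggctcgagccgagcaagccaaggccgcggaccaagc
Tef: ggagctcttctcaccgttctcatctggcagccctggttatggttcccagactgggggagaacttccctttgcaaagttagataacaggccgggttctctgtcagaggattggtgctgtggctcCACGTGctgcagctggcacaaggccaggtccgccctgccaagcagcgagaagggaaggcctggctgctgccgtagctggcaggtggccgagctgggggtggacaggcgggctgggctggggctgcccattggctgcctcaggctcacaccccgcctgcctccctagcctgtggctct
Ciart: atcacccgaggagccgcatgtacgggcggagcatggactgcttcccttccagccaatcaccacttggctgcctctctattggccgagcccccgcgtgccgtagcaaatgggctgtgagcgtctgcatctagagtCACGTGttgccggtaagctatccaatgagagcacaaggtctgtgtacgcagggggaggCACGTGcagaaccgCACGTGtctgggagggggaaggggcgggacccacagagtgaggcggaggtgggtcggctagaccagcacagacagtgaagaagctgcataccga
For Arntl and Tef the table lists 2 starts each, and AGGTCA stood in 1 of the 2 Arntl windows, which is the one shown. Both motifs were searched on both strands, and no matches overlapped in these 4 windows. Of 32851 promoters of the same length, 2349 (7.15%) held CACGTG and 5340 (16.26%) held AGGTCA. Of the 26 clock genes measured, 23 had a promoter in the table. Of those, CACGTG stood in 3 of the 7 whose levels were lower in all 3 RE libraries, in 1 of the 4 that were higher and in 2 of the 12 that overlapped. AGGTCA stood in 1 of the 7 lower, 3 of the 4 higher and 2 of the 12 overlapping genes. A gene counted here if any of its starts held the motif, whereas the shares over all promoters count each window. Among the higher genes AGGTCA stood in 1 of 2 windows for Arntl and 1 of 3 for Clock. Leo1 had 1 window with AGGTCA and Cry1 had 1 without. A match describes the letters of the window and is not a measured binding site.

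Depth in the 8 libraries was 35177914 to 41642833 reads in genes, with 22093 to 23249 genes detected. Markers of the labelled tissue were present, with Krt14 of basal keratinocytes between 2520 and 4980 CPM, which is a read count scaled to the size of its library, and Krt10 of spinous keratinocytes between 1.07e+04 and 1.57e+04 CPM in the 6 libraries compared. Replicate 2 of WT and replicate 2 of RE may be exchanged, and the main result leaves both out, so that 3 WT mice stand against 3 RE mice. Over the 50 protein-coding genes of smallest p in that comparison, WT replicate 2 lay nearer the RE mean for 43 and RE replicate 2 nearer the WT mean for 43. The sorting used the outcome itself, Arntl included, so these counts describe the libraries and are no test. KO replicate 1 lay nearer the WT mean than the RE mean for 43 of the 50 genes and was left out of the KO values. That choice used measured levels too, so the KO comparisons are given with this library as well.

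RE and WT epidermis differed at time point 3 in 2 of 18287 genes tested, which is 0.0109%, and both rose. These were Arntl and Leo1, at an adjusted p under 0.05 in edgeR's quasi-likelihood test with Benjamini-Hochberg adjustment. No gene fell, while 609 genes (3.33%) had an unadjusted p under 0.05. With all 8 libraries as labelled, 4 against 4, no gene of 18321 passed and 320 had an unadjusted p under 0.05. The 95% interval of the difference lay within 2-fold in either direction for 10540 of the 10943 genes with at least 5 CPM, so larger differences were outside the interval for most genes at that level.

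Arntl (ENSMUSG00000055116, chr7:113207465-113314126, plus strand, GRCm38) stood at 26.0, 29.8 and 34.2 CPM in WT and at 68.9, 52.7 and 49.2 CPM in RE. All 3 RE libraries lay above all 3 WT libraries. The mean was 56.9 ± 10.5 CPM in RE against 30.0 ± 4.1 CPM in WT (SD, n = 3 each), a log2 difference of 0.94 with an SE of 0.14 and an adjusted p of 0.00327 in edgeR. The KO mean was 29.4 ± 0.212 CPM (SD, n = 3), close to the WT mean at this time, with a log2 difference of KO from WT of -0.03 (adjusted p = 0.969). The libraries left out stood at 63.9 CPM in WT replicate 2 and 30.5 CPM in RE replicate 2. With them as labelled the difference was 0.39 with an SE of 0.20 and an adjusted p of 1.0. The call was also lost when WT replicate 1, WT replicate 3 or RE replicate 1 was left out. It was lost as well when the compared libraries were fitted alone (adjusted p = 0.241 in edgeR).

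Leo1 (ENSMUSG00000042487, chr9:75441524-75466432, plus strand, GRCm38) encodes a subunit of the PAF1 complex, which travels with elongating RNA polymerase II. Its level was 12.9, 12.9 and 12.2 CPM in WT and 20.2, 19.7 and 19.0 CPM in RE. The spread within each genotype was small beside the gap between them, with SDs of 0.366 and 0.615 CPM. The log2 difference was 0.64 with an SE of 0.10 and an adjusted p of 0.00562 in edgeR. The KO mean was 28.8 ± 1.10 CPM (SD, n = 3), above the WT level. The log2 difference of KO from WT was 1.19 (adjusted p = 7.1e-09 in edgeR), and 0.8 with all 12 libraries as labelled. The promoter window held no CACGTG. Leo1 counts as a clock gene here only by its place in the list of direct clock targets, which was chosen with earlier results of these data known. Whether it is a direct target was not tested. As labelled, with WT replicate 2 at 19.9 and RE replicate 2 at 15.2 CPM, the difference of RE from WT was 0.36 with an SE of 0.12 and an adjusted p of 1.0. The call between RE and WT was lost when any 1 of the 3 WT libraries or RE replicate 1 was left out. It was lost as well when the compared libraries were fitted alone (adjusted p = 0.17 in edgeR).

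Over the 3 clock lists together, 26 genes were tested, 2 rose, none fell and 11 had an unadjusted p under 0.05, and DESeq2 called Dbp besides Arntl and Leo1. The 3 RE libraries lay above the 3 WT libraries for 4 clock genes and below them for 8, and overlapped for 14. Among all genes tested, 913 (4.99%) lay above without overlap and 954 (5.22%) below. Replicate number paired the libraries weakly, and with the number as a block 5 genes passed, which were Arntl, Leo1, Mt4, Rassf6 and Ttc9.

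**Figure D1:**
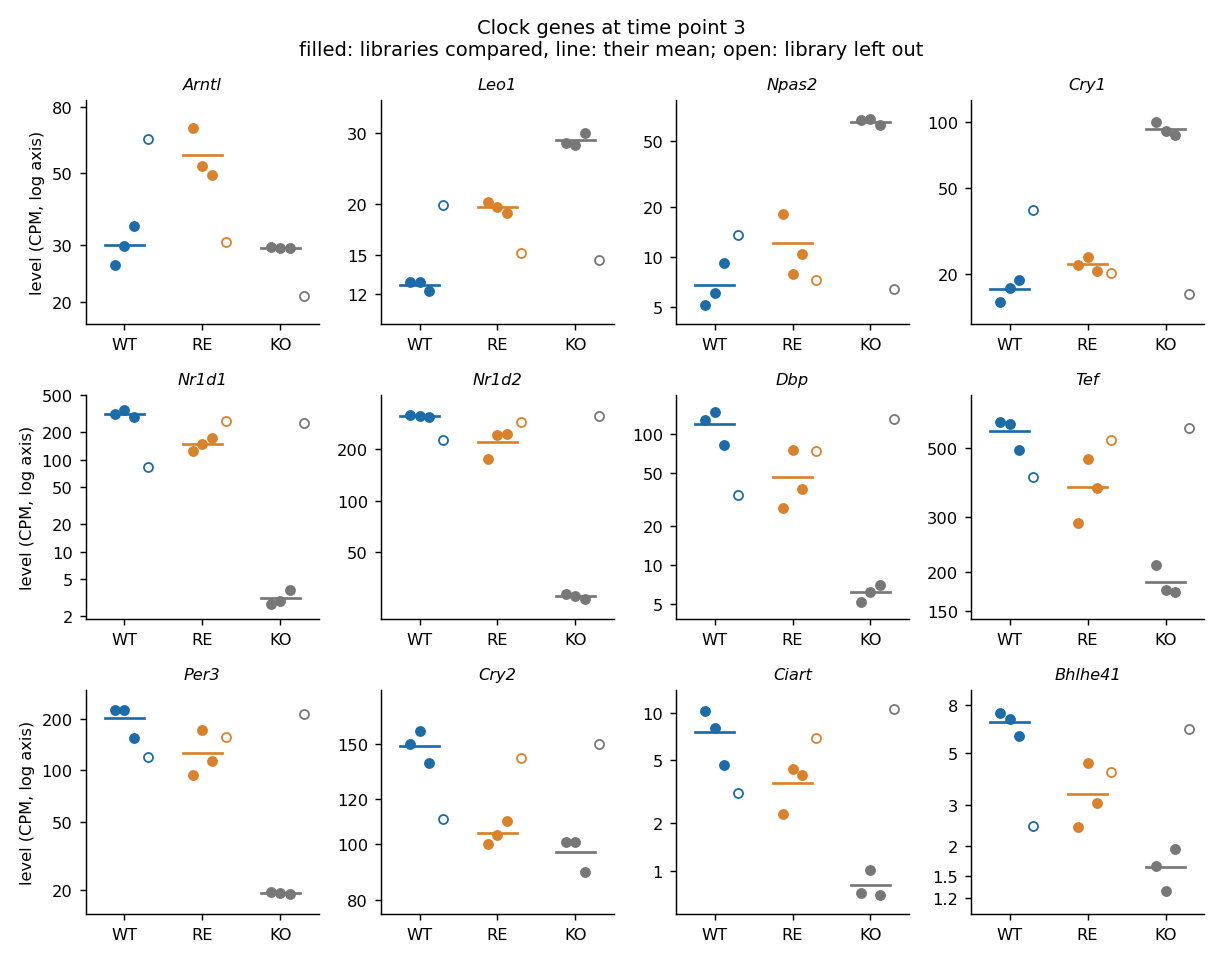
Level (CPM, log axis) of 12 clock genes in each library of WT, RE and KO at time point 3. Filled points are the 3 libraries compared per genotype, lines their mean, and open points the library left out, and Arntl is seen at 49.2 to 68.9 CPM in RE against 26.0 to 34.2 CPM in WT, with the open WT and RE points each on the other genotype's side.

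Among the activators, Clock, the partner of BMAL1, stood at 110, 118 and 120 CPM in WT and at 136, 123 and 139 CPM in RE. The RE libraries were higher without overlap, yet the log2 difference of 0.21 (SE 0.10, adjusted p = 1.0 in edgeR) did not pass. Npas2, the alternative partner, stood at 5.13, 6.07 and 9.17 CPM in WT and at 18.2, 7.84 and 10.4 CPM in RE. The groups overlapped, RE replicate 1 was the highest, and the difference was 0.85 (SE 0.23, adjusted p = 0.685). Rora, which encodes a ROR activator, had a mean level of 475 ± 55.7 CPM in WT and 458 ± 57.9 CPM in RE (SD, n = 3 each). Its difference of -0.04 had a 95% interval from -0.30 to 0.22. Arntl2, a paralog of Arntl, differed by -0.05, with an interval from -0.37 to 0.27. The median difference of the 5 activators, Arntl included, was 0.208 against 0.007 over all genes tested. That median is the value of Clock, as 3 of the 5 differences were above 0. With all 8 libraries as labelled it was 0.062.

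The repressor arm lay lower in RE for most of its genes, although none passed the test. Of 11 repressors, 6 were lower in all 3 RE libraries, 1 was higher and 9 had a difference below 0, and the median was -0.519. Over all genes tested, 954 of 18287 (5.22%) were lower in all 3 RE libraries and 8782 had a difference below 0. Nr1d1 stood at 310, 344 and 287 CPM in WT and at 125, 147 and 173 CPM in RE. The highest RE library was thus well under the lowest WT library, and the difference was -1.07 (SE 0.32, adjusted p = 0.82 in edgeR). Nr1d2 stood at 319, 312 and 310 CPM in WT and at 175, 244 and 245 CPM in RE, a difference of -0.49 (SE 0.13, adjusted p = 0.54). WT libraries lay close together for this gene, with an SD of 4.62 CPM, while RE replicate 1 was the lowest of all 6. As labelled, the differences were -0.52 for Nr1d1 and -0.29 for Nr1d2.

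The cryptochromes, which block the BMAL1 complex, went in opposite directions in level. Cry2 stood at 150, 158 and 139 CPM in WT and at 100, 104 and 110 CPM in RE, a difference of -0.50 (SE 0.13, adjusted p = 0.54 in edgeR). Cry1 stood at 14.9, 17.3 and 18.8 CPM in WT and at 22.1, 24.0 and 20.7 CPM in RE, a difference of 0.40 (SE 0.26, adjusted p = 1.0). Neither gene's groups overlapped. As labelled the difference of Cry1 was -0.06, with WT replicate 2 at 39.6 CPM.

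Of the Period genes, which encode the partners of the cryptochromes, Per2 was lower in all 3 RE libraries. It stood at 50.3, 58.6 and 47.7 CPM in WT and at 15.2, 32.9 and 40.2 CPM in RE, a difference of -0.82 (SE 0.47, adjusted p = 1.0 in edgeR). Per3 stood at 224, 226 and 155 CPM in WT and at 93.9, 171 and 113 CPM in RE. Its groups overlapped through WT replicate 4 and RE replicate 3, and the difference was -0.67 (SE 0.19, adjusted p = 0.72). Per1 stood at 298, 284 and 358 CPM in WT and at 188, 192 and 324 CPM in RE, with replicate 4 highest in each genotype, and the difference was -0.41 (SE 0.41, adjusted p = 1.0). Per1 also responds to glucocorticoids.

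Ciart and Bhlhe41, which encode further repressors of BMAL1 and CLOCK, were low and lower still in RE. Ciart stood at 10.2, 7.99 and 4.66 CPM in WT and at 2.29, 4.41 and 4.05 CPM in RE, a difference of -1.08 (SE 0.36, adjusted p = 1.0 in edgeR). Bhlhe41 stood at 7.43, 7.00 and 5.90 CPM in WT and at 2.42, 4.56 and 3.07 CPM in RE, a difference of -1.01 (SE 0.42, adjusted p = 1.0). Neither overlapped. Bhlhe40, its paralog, ranged from 116 to 367 CPM in RE and from 303 to 461 CPM in WT, with RE replicate 3 lowest. Nfil3, a repressor that competes with the PAR bZIP factors, ranged from 15.0 to 52.0 CPM in RE and from 18.4 to 40.3 CPM in WT, and replicate 4 was the highest in each genotype.

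The PAR bZIP factors carry the clock's signal to its output genes, and Dbp and Tef were lower in all 3 RE libraries. Dbp stood at 127, 146 and 82.3 CPM in WT and at 27.3, 75.2 and 38.2 CPM in RE, a difference of -1.33 (SE 0.32, adjusted p = 0.418 in edgeR and 0.0488 in DESeq2). Without RE replicate 3, the highest of the RE libraries, Dbp passed in edgeR too. Tef stood at 603, 598 and 493 CPM in WT and at 287, 460 and 372 CPM in RE, a difference of -0.59 (SE 0.15, adjusted p = 0.54). Hlf, the other member of this family, differed by -0.12, with an interval from -0.48 to 0.24. The remaining genes listed as direct targets, apart from Leo1, overlapped between genotypes. Their differences were -0.17 for Usp2, a deubiquitinase, -0.29 for Wee1, a kinase that holds cells before mitosis, -0.22 for Marveld1, -0.15 for Tspan4, -0.08 for Por and 0.23 for Tsc22d3. Of the 10 genes of this list, 1 (Leo1) was higher and 2 were lower without overlap.

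**Figure D2:**
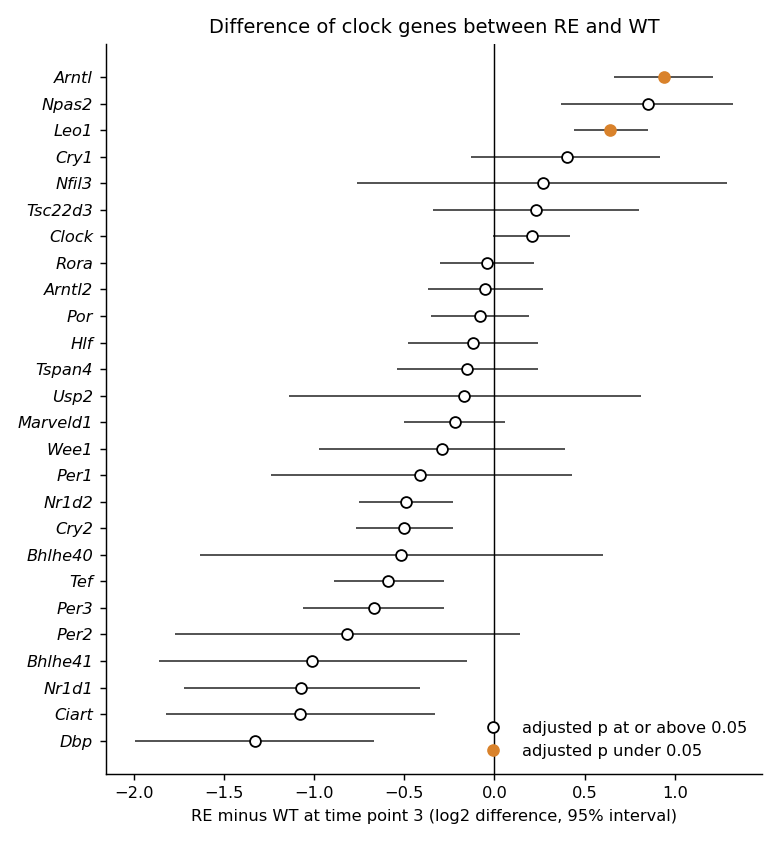
Difference between RE and WT at time point 3 (log2, RE minus WT) for the 26 clock genes tested, with the 95% interval as a line. Filled points are the 2 genes with an adjusted p under 0.05, Arntl at 0.94 and Leo1 at 0.64, and open points the others, which reach down to -1.33 for Dbp.

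The KO values, without KO replicate 1, are set beside these differences. KO and RE are each compared with groups used above, so the comparisons share libraries. Against WT at the same time, 442 genes (2.42%) passed in KO, 200 higher (1.09%) and 242 lower (1.32%), and 14 of the 26 clock genes were among them. Between RE and KO, 72 genes (0.394%) passed, 42 higher (0.23%) and 30 lower (0.164%) in RE, with 10 of the 26 clock genes among them. Nr1d1 was 3.14 ± 0.575 CPM in KO against 149 ± 23.9 CPM in RE and 314 ± 28.9 CPM in WT (SD, n = 3 each), which puts RE at 47.4% and KO at 1.00% of the WT mean. Nr1d2 was at 70.7% of the WT mean in RE and 8.81% in KO, and Per3 at 62.4% and 9.50%. Dbp was at 39.6% in RE and 5.24% in KO. RE was thus between KO and WT in the mean for these genes, and for each of them RE exceeded KO (adjusted p of 2.75e-10, 7.98e-15, 7.01e-10 and 8.15e-06 in edgeR).

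These KO results rest on leaving out KO replicate 1. In that library Nr1d1 stood at 251.0 CPM, against 2.71 to 3.79 CPM in the other KO libraries, and Nr1d2, Per3 and Dbp stood at 315.0, 212.0 and 131.0 CPM. With all 12 libraries of time point 3 as labelled, 86 genes (0.477%) passed between KO and WT and 12 (0.0665%) between RE and KO. The clock genes among them were Npas2, Cry1 and Leo1 between KO and WT, and Npas2 and Cry1 between RE and KO. Nr1d1, Nr1d2, Per3 and Dbp then passed in neither comparison, with adjusted p from 0.126 to 0.472 for KO against WT and from 0.553 to 1.0 for RE against KO.

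Npas2 and Cry1, which REV-ERB receptors repress, were high in these 3 KO libraries and nearer to WT in RE. Npas2 was 65.5 ± 2.96 CPM in KO, 12.1 ± 5.38 CPM in RE and 6.79 ± 2.11 CPM in WT (SD, n = 3 each). Cry1 was at 92.6 ± 6.58 CPM in KO, 22.2 ± 1.70 CPM in RE and 17.0 ± 1.98 CPM in WT. RE was lower than KO for both genes (adjusted p of 1.08e-07 and 2.21e-05 in edgeR, and 0.016 and 0.0372 with all 12 libraries as labelled). For Cry2, Per2 and Bhlhe41, which also lay lower in RE than in WT, RE did not pass against KO. Cry2 had a mean of 105 ± 4.96 CPM in RE and 97.1 ± 6.76 CPM in KO, a difference of 0.12 (adjusted p = 0.99), beside 149 ± 9.87 CPM in WT (SD, n = 3 each).

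The difference between RE and WT at time point 3 was then compared with that at the earlier time points by an interaction term. Against time point 1 it differed for 8 genes (0.0437% of 18287), 4 upwards and 4 downwards (0.0219% each), and all but Ttc9 were in the clock lists. With the replicate block 8 genes passed, 3 upwards and 5 downwards, and 7 of them were among these 8, without Leo1. Against time point 2 it differed for none in edgeR, with 354 genes (1.94%) at an unadjusted p under 0.05, and for 4 in DESeq2. RE and WT themselves differed in 3 genes (0.0164%) at time point 1 and in 2 genes (0.0109%) at time point 2.

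For Arntl, Npas2, Leo1 and Ttc9 the RE mean was below the WT mean at time point 1 and above it at time point 3. Arntl stood at 157, 130, 120 and 115 CPM in WT and at 104, 112, 90.5 and 91.0 CPM in RE at time point 1, where no RE library reached the lowest WT library. The RE minus WT difference was -0.40 there and 0.94 at time point 3, and the 2 differed by 1.34 (SE 0.18, adjusted p = 0.00034 in edgeR). Between time points 1 and 3 the WT mean went from 131 ± 18.9 to 30.0 ± 4.1 CPM and the RE mean from 99.2 ± 10.4 to 56.9 ± 10.5 CPM (SD, n = 4 and 3). For Npas2 the change of the difference was 1.68 (SE 0.30, adjusted p = 0.0124), with WT at 51.7 ± 3.21 and RE at 29.1 ± 7.07 CPM at time point 1 (SD, n = 4 each). For Leo1 it was 0.75 (SE 0.13, adjusted p = 0.0107, and 0.0766 with the replicate block), and both genotypes were near the KO level at time point 1, with 26.2 ± 0.812 CPM in WT, 24.4 ± 2.07 CPM in RE and 28.7 ± 2.28 CPM in KO. For Ttc9, which encodes a tetratricopeptide repeat protein, it was 1.35 (SE 0.20, adjusted p = 0.00111).

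For Dbp, Tef, Per3 and Cry2 the order was the reverse, with RE above WT at time point 1 and below it at time point 3. Dbp stood at 2.69, 2.34, 2.03 and 2.20 CPM in WT and at 11.9, 6.02, 10.0 and 8.05 CPM in RE at time point 1. All 4 RE libraries were above all 4 WT libraries, and the difference was 1.96 (SE 0.32, adjusted p = 0.0101 in edgeR). At time point 3 it was -1.33, and the 2 differed by -3.28 (SE 0.46, adjusted p = 0.000373). The mean of Tef was 63.6 ± 7.35 CPM and then 564 ± 62.1 CPM in WT, and 159 ± 10.0 CPM and then 373 ± 86.6 CPM in RE (SD, n = 4 at time point 1, n = 3 at time point 3). The change of its difference was -1.91 (SE 0.20, adjusted p = 4.78e-06). For Per3 the change was -1.87 (SE 0.26, adjusted p = 0.000373), and for Cry2 it was -1.01 (SE 0.18, adjusted p = 0.0101). At time point 2 the means of RE and WT lay close for Dbp, at 23.4 ± 7.91 and 24.0 ± 10.5 CPM (SD, n = 4 each). With all 8 libraries of time point 3 as labelled, 3 of these 8 genes passed, and with KO replicate 1 in the shared fit as well none did. The Npas2 call was also lost without WT replicate 1, WT replicate 3 or RE replicate 1, and with all 18 groups (adjusted p = 0.334 in edgeR). Cry2 lost its call without WT replicate 3 or RE replicate 1, and Leo1 without WT replicate 4 or RE replicate 1.

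**Figure D3:**
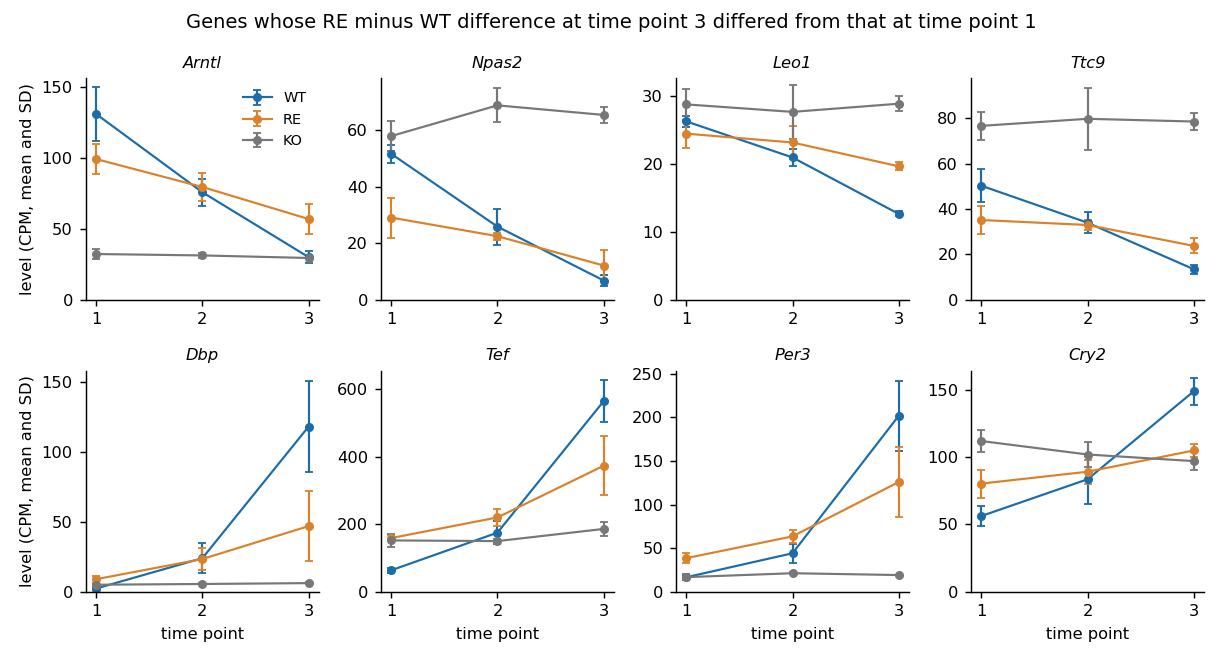
Mean level (CPM) with SD at time points 1, 2 and 3 in WT, RE and KO for the 8 genes whose RE minus WT difference changed between time points 1 and 3 (n = 4 per group at time points 1 and 2, n = 3 at time point 3). The RE line is flatter than the WT line, as for Dbp, which goes from 2.32 to 118 CPM in WT and from 8.99 to 46.9 CPM in RE.

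For Nr1d1 the RE mean lay below the WT mean at time points 1, 2 and 3, so the order did not reverse, and the gene did not pass in the interaction. It stood at 130 ± 15.8 CPM in WT and 117 ± 33.7 CPM in RE at time point 1, at 260 ± 88.2 and 127 ± 35.6 CPM at time point 2 (SD, n = 4 each), and at 314 ± 28.9 and 149 ± 23.9 CPM at time point 3 (SD, n = 3 each). Its difference was -1.03 at time point 2 and -1.07 at time point 3. The change of the difference from time point 1 was -0.92 (SE 0.42, adjusted p = 0.999 in edgeR), in the same direction as for Dbp, Tef, Per3 and Cry2.

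Outside the clock lists no gene passed in the main edgeR fit, and the next in rank are given as values. In DESeq2 the adjusted p was 0.00136 for Ttc9, 0.00212 for Ccnd2 and 0.0405 for Ccnd1, so these genes passed there. With no filter on low counts Ttc9 and Ccnd2 passed in edgeR (adjusted p of 0.0425 each). With all 8 libraries as labelled none of them passed. Ttc9 stood at 14.9, 11.3 and 14.0 CPM in WT and at 24.9, 26.3 and 20.0 CPM in RE, a difference of 0.83 (SE 0.15, adjusted p = 0.0605 in edgeR and 0.0377 with the replicate block). Ccnd2, which encodes cyclin D2, stood at 749, 799 and 661 CPM in WT and at 369, 435 and 504 CPM in RE. The difference was -0.75 (SE 0.14, adjusted p = 0.0647), and the highest RE library lay well under the lowest WT library. Ccnd1, which encodes cyclin D1, stood at 151, 148 and 144 CPM in WT and at 93.7, 90.4 and 96.9 CPM in RE, a difference of -0.65 (SE 0.15, adjusted p = 0.279). Both cyclins drive cells from G1 towards S phase. Their KO means, without KO replicate 1, were 236 ± 12.6 and 56.9 ± 4.14 CPM (SD, n = 3 each), so the RE mean lay between KO and WT for both. RE passed against KO for both (adjusted p of 0.000797 and 0.0139 in edgeR). With all 12 libraries of time point 3 as labelled it passed for neither (adjusted p of 0.599 and 0.943).

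Mt4, which encodes a metallothionein of stratified epithelia, and Rassf6, Serpinb13 and Man2b2 were named after their values were seen, as the next genes by p. Mt4 stood at 40.7, 43.6 and 38.7 CPM in WT and at 79.3, 86.8 and 64.4 CPM in RE, a difference of 0.92 (SE 0.21, adjusted p = 0.294 in edgeR and 0.000997 with the replicate block). Rassf6, a RAS association domain gene, stood at 8.57, 8.09 and 8.53 CPM in WT and at 20.3, 11.3 and 19.1 CPM in RE, a difference of 1.02 (adjusted p = 0.196, and 0.0389 with the replicate block). Serpinb13, an epidermal protease inhibitor gene, differed by 1.54 (adjusted p = 0.224) at levels of 0.927 ± 0.0728 CPM in WT and 2.69 ± 0.407 CPM in RE (SD, n = 3 each). Man2b2, a lysosomal mannosidase gene, differed by -0.35 (adjusted p = 0.279). In DESeq2 these 4 genes passed, with an adjusted p of 0.0405 for Mt4 and Man2b2 and 0.0112 for Rassf6 and Serpinb13. All 4 were without overlap. They were picked by p in the comparison that leaves out WT replicate 2 and RE replicate 2. In those libraries, in this order, Mt4 stood at 77.5 and 43.2 CPM and Rassf6 at 19.6 and 8.57 CPM. With all 8 libraries as labelled the differences were 0.45 for Mt4, 0.40 for Rassf6, 0.93 for Serpinb13 and -0.21 for Man2b2, and none passed. The picking used the outcome, so these values describe the libraries and are no test.

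The other lists were read by their counts, since no member of any of them passed in edgeR at time point 3. In all, 36 lists with 538 genes were used, of which 510 were tested. Of the list members outside the clock lists, DESeq2 called 2 of the cell cycle gatekeepers, which were Ccnd1 and Ccnd2, and 1 glycolysis gene, which was Pfkfb3. Its 15 calls among 18287 genes also held Ttc9, Mt4, Rassf6, Serpinb13 and Man2b2. Over all 18287 genes tested the median difference was 0.007, with 9505 differences above 0 and 8782 below. Without overlap, 913 (4.99%) lay higher and 954 (5.22%) lower in RE, and 609 (3.33%) had an unadjusted p under 0.05 in edgeR. The counts of each list are to be read beside these. Leaving out 1 library turned the sign of the median in 19 of the 36 lists, and in 30 it turned the sign or moved the median by over 1.5 times. The 6 others were clock activators, clock repressors, oxidative phosphorylation, sterol synthesis, heat shock and the unfolded protein and integrated stress genes. Without RE replicate 3 alone, 23 lists moved that far or turned.

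Genes of G2 and mitosis had a difference above 0 for 24 of 24 members, against 9505 of all 18287 genes tested, with a median of 0.557. Yet none of these genes was without overlap between the genotypes, and 2 had an unadjusted p under 0.05. Their summed level ranged from 449.8 to 501.6 CPM in WT and from 317.4 to 878.5 CPM in RE. Aurkb, which encodes Aurora kinase B, stood at 5.02, 5.47 and 3.63 CPM in WT and at 12.1, 3.41 and 9.48 CPM in RE, a difference of 0.83 (SE 0.39, adjusted p = 1.0 in edgeR). Kif11, which encodes a spindle motor, stood at 18.8, 18.7 and 17.6 CPM in WT and at 39.0, 12.4 and 35.0 CPM in RE. RE replicate 3 was the lowest of the 6 libraries for both, while the other two RE libraries were the highest. The median was 0.896 without RE replicate 3 and 0.225 without RE replicate 1, and 0.167 with all 8 libraries as labelled.

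S phase genes had 18 of 24 differences below 0 and a median of -0.172, none without overlap and none with an unadjusted p under 0.05. The median was -0.021 without RE replicate 3, -0.442 without RE replicate 4, -0.289 without WT replicate 4 and -0.09 without WT replicate 3. Mcm2, a subunit of the replicative helicase, stood at 73.8, 70.3 and 56.1 CPM in WT and at 46.3, 32.2 and 67.0 CPM in RE, a difference of -0.45 (SE 0.29, adjusted p = 1.0 in edgeR). Of 12 cell cycle inhibitors and gatekeepers, 2 were lower without overlap, which were the cyclin D genes above, and the median of -0.061 ran from -0.277 without RE replicate 4 to 0.061 without WT replicate 4. Of 16 genes of nucleotide excision and mismatch repair, 1 was higher and 3 were lower without overlap, with a median of -0.035, which was -0.074 without WT replicate 4. Ddb2, a damage sensor, stood at 36.7 ± 1.73 CPM in WT and 33.2 ± 1.01 CPM in RE (SD, n = 3 each), a difference of -0.13 (adjusted p = 1.0).

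Glycolysis genes lay lower in RE for 14 of 18, with 6 lower and none higher without overlap and a median of -0.121. Pfkfb3, which makes the allosteric activator of phosphofructokinase, stood at 36.1, 34.9 and 32.7 CPM in WT and at 14.4, 13.3 and 18.6 CPM in RE. The gap between the groups was larger than the spread within either, and the difference was -1.15 (SE 0.25, adjusted p = 0.196 in edgeR and 0.0112 in DESeq2). The KO mean was 10.3 ± 1.75 CPM (SD, n = 3), and KO replicate 1 stood at 28.6 CPM. The lactate exporter gene Slc16a3 stood at 4.61, 6.81 and 9.14 CPM in WT and at 4.30, 1.77 and 4.33 CPM in RE, a difference of -0.97 (SE 0.34, adjusted p = 1.0). Tpi1, for triosephosphate isomerase, differed by -0.24 (adjusted p = 1.0). As labelled the median of the list was -0.041, with 16 of 18 below 0. It was -0.028 without RE replicate 3, -0.199 without RE replicate 4 and -0.188 without WT replicate 1.

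Hypoxia-induced genes were below 0 for 12 of 14, with 3 lower without overlap and a median of -0.303, which was -0.097 as labelled, -0.159 without WT replicate 4 and -0.172 without RE replicate 1. P4ha1, a collagen prolyl hydroxylase gene, stood at 54.0, 52.4 and 53.3 CPM in WT and at 45.7, 40.2 and 41.8 CPM in RE, a difference of -0.31 (SE 0.18, adjusted p = 1.0 in edgeR). Vegfa, for the endothelial growth factor, overlapped and differed by -0.56 (adjusted p = 1.0).

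Nuclear genes of oxidative phosphorylation had 27 of 30 differences above 0, with 12 higher and 1 lower without overlap. The differences were small, with a median of 0.097, which was 0.081 as labelled. Cyc1, for cytochrome c1, stood at 61.9, 66.8 and 63.3 CPM in WT and at 71.4, 68.2 and 71.8 CPM in RE, a difference of 0.15 (SE 0.06, adjusted p = 1.0 in edgeR). Sdhb, a subunit of succinate dehydrogenase, differed by 0.18 (adjusted p = 1.0). Of 19 genes of reactive oxygen defence, 1 was higher and 2 were lower without overlap. The former was Gpx2, a glutathione peroxidase gene near the limit of detection, at 0.385 ± 0.169 CPM in WT and 1.03 ± 0.469 CPM in RE (SD, n = 3 each). In this list 12 of 19 differences were below 0, with a median of -0.02, which was 0.023 without RE replicate 4. Its summed level was 1210 to 1227 CPM in WT and 1143 to 1154 CPM in RE. In the libraries left out the sum was 1164 CPM for WT replicate 2 and 1197 CPM for RE replicate 2.

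Sterol synthesis had the largest share of genes without overlap on the higher side among the lists, with 10 of 19 higher in all 3 RE libraries and none lower. The median was 0.293, 18 of 19 were above 0 and 7 had an unadjusted p under 0.05. Hmgcs1, which makes HMG-CoA, stood at 472, 395 and 473 CPM in WT and at 597, 509 and 579 CPM in RE, a difference of 0.34 (SE 0.13, adjusted p = 1.0 in edgeR). Dhcr7, the last step of cholesterol synthesis, stood at 67.7, 56.6 and 59.3 CPM in WT and at 79.1, 77.7 and 80.0 CPM in RE, a difference of 0.38 (SE 0.12, adjusted p = 0.932). Neither overlapped. Sc5d and Idi1, which encode enzymes of the same pathway, differed by 0.41 (adjusted p = 0.82) and 0.56 (adjusted p = 1.0). As labelled the list's median was 0.148, with 17 of 19 above 0.

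Of 12 genes of fatty acid synthesis, 2 were higher without overlap and none lower, with a median of 0.077, which was -0.017 without WT replicate 3 and 0.143 without WT replicate 4. Acaca, for the committing acetyl-CoA carboxylase, stood at 139, 136 and 153 CPM in WT and at 173, 174 and 182 CPM in RE, a difference of 0.32 (SE 0.08, adjusted p = 0.54 in edgeR). Scd2, for a stearoyl-CoA desaturase, stood at 45.4, 40.9 and 44.5 CPM in WT and at 98.8, 64.0 and 96.8 CPM in RE, a difference of 1.00 (SE 0.32, adjusted p = 1.0). In KO these genes were at 183 ± 17.2 and 118 ± 25.6 CPM (SD, n = 3 each), and KO replicate 1 stood at 145.0 and 64.1 CPM. Fatty acid oxidation genes had a median of -0.022 with 2 of 15 lower without overlap. That median ran from -0.082 without WT replicate 3 to 0.001 without WT replicate 1. Acadl, an acyl-CoA dehydrogenase gene, differed by 0.16 (adjusted p = 1.0). Serine, folate and one-carbon genes had a median of 0.041 and none of 13 without overlap, and Psat1 of serine synthesis differed by 0.22 (adjusted p = 1.0). The list's median was -0.013 as labelled and ran from -0.052 without WT replicate 4 to 0.081 without RE replicate 3.

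**Figure D4:**
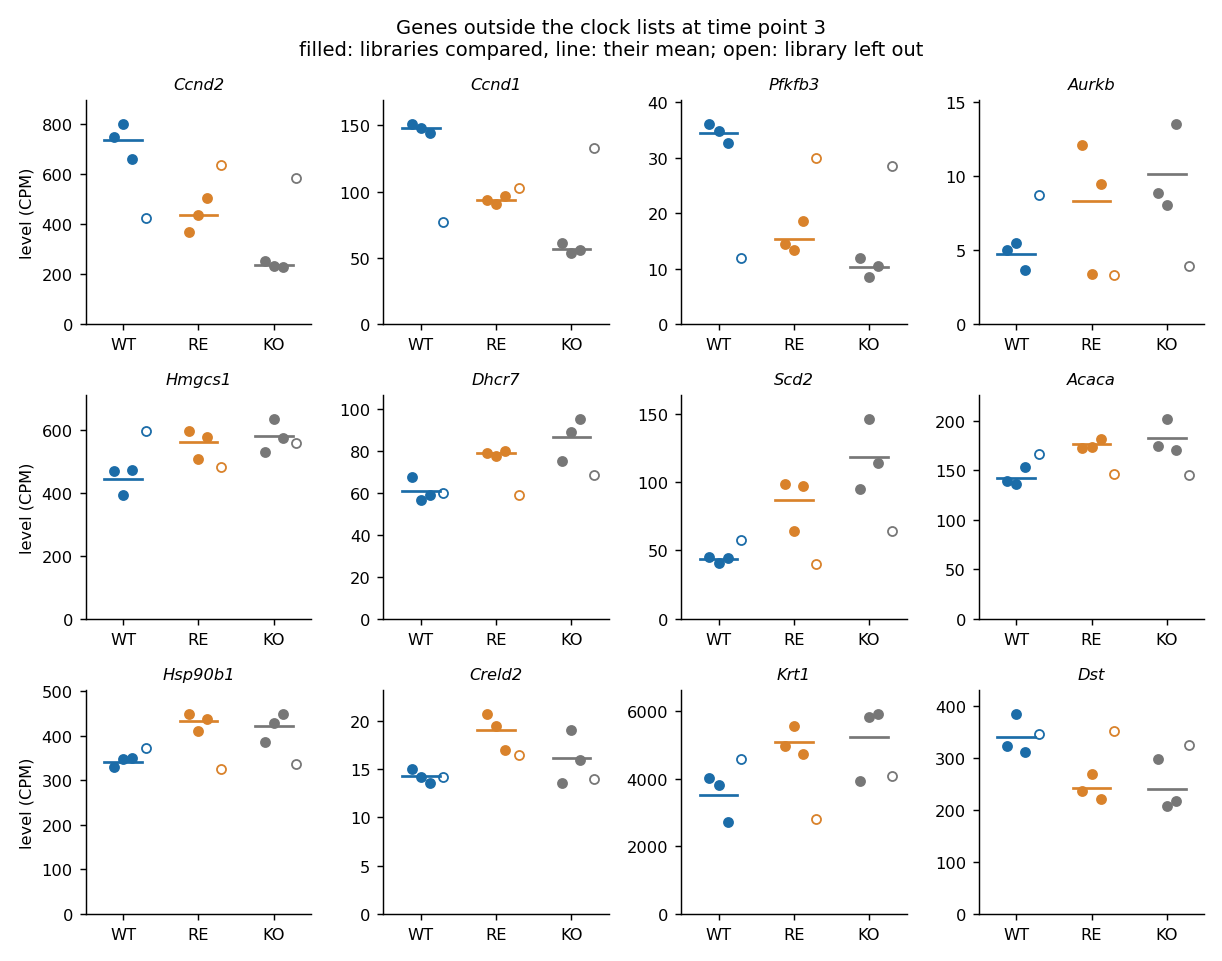
Level (CPM, axes from 0) of 12 genes outside the clock lists in each library of WT, RE and KO at time point 3. Filled points are the libraries compared, lines their mean and open points the library left out, and Ccnd2 is seen at 369 to 504 CPM in RE against 661 to 799 CPM in WT, whereas Aurkb in RE runs from 3.41 to 12.1 CPM.

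Of 17 genes that respond to unfolded protein or integrated stress, none passed, and 7 were higher and none lower without overlap, with a median of 0.169 and 5 at an unadjusted p under 0.05. Hsp90b1, an endoplasmic reticulum chaperone gene, stood at 330, 347 and 349 CPM in WT and at 449, 411 and 438 CPM in RE, a difference of 0.35 (SE 0.10, adjusted p = 0.786 in edgeR). Creld2, which is induced by misfolded protein, stood at 15.0, 14.2 and 13.5 CPM in WT and at 20.7, 19.5 and 17.0 CPM in RE, a difference of 0.43 (SE 0.13, adjusted p = 0.78). Both were without overlap, as were the chaperone genes Calr and Pdia4, which differed by 0.38 and 0.21 (adjusted p = 1.0 each). As labelled the list's median was 0.12, with 13 of 17 above 0. Of 16 heat shock genes, 3 were higher without overlap, with a median of 0.077, and Hsph1 differed by 0.42 (adjusted p = 1.0).

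Immediate early genes had a median of 0.034, with 1 of 21 higher without overlap. That gene was Fos, at 4170, 4300 and 4080 CPM in WT and 5010, 4570 and 4360 CPM in RE, a difference of 0.16 (SE 0.22, adjusted p = 1.0 in edgeR). The median of this list was -0.015 as labelled and ran from -0.031 without WT replicate 1 to 0.085 without WT replicate 4. Glucocorticoid-induced genes, a readout of a systemic cue, were below 0 for 12 of 14 with a median of -0.18 and none without overlap. The median ran from -0.471 without RE replicate 4 to -0.106 without WT replicate 4, and Mt1, a metallothionein gene, differed by -0.30 (adjusted p = 1.0). Interferon response genes had a median of -0.003, with 1 of 16 higher and 1 lower without overlap, and a range from -0.18 without RE replicate 4 to 0.224 without RE replicate 3. EGF receptor ligands and feedback genes had a median of -0.055 with 2 of 17 lower without overlap, and their median ran from -0.229 to 0.033 without the same libraries.

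Basal layer genes had 12 of 14 differences below 0, with 4 lower and none higher without overlap and a median of -0.145. Dst, whose epidermal product anchors keratin to hemidesmosomes, stood at 324, 385 and 311 CPM in WT and at 236, 270 and 221 CPM in RE, a difference of -0.48 (SE 0.15, adjusted p = 0.892 in edgeR). Itga6, its integrin partner gene, stood at 917, 970 and 945 CPM in WT and at 785, 668 and 827 CPM in RE, a difference of -0.30 (SE 0.14, adjusted p = 1.0). RE replicate 3 was the lowest for Itga6, and the basal keratin genes Krt14 and Krt5 were also lowest in it, at 2520 and 5850 CPM against 4080 to 4980 and 8140 to 9330 CPM in the other libraries compared. Without RE replicate 3 the list's median was -0.029, and without RE replicate 4 it was -0.254. The share of this library's composition in these results was not tested.

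Spinous layer genes were above 0 for 9 of 10, with 1 higher without overlap and a median of 0.098, which was -0.02 without RE replicate 3. The 1 gene was Krt1, the keratin partner of Krt10, at 4020, 3810 and 2720 CPM in WT and at 4980, 5570 and 4740 CPM in RE, a difference of 0.54 (SE 0.23, adjusted p = 1.0 in edgeR). Granular layer and cornified envelope genes had a median of 0.02 with 1 of 21 lower without overlap, and barrier lipid and ceramide enzymes a median of 0.055 with 1 of 16 higher. That gene was Pnpla1, needed for acylceramide, with a difference of 0.35 (adjusted p = 1.0). Without WT replicate 3 the granular median was -0.168, and without RE replicate 3 the lipid enzymes' median was 0.002. Genes of the stressed keratinocyte had a median of 0.192 with 1 of 13 higher without overlap, and their median ran from 0.031 without RE replicate 4 to 0.39 without WT replicate 4.

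**Figure D5:**
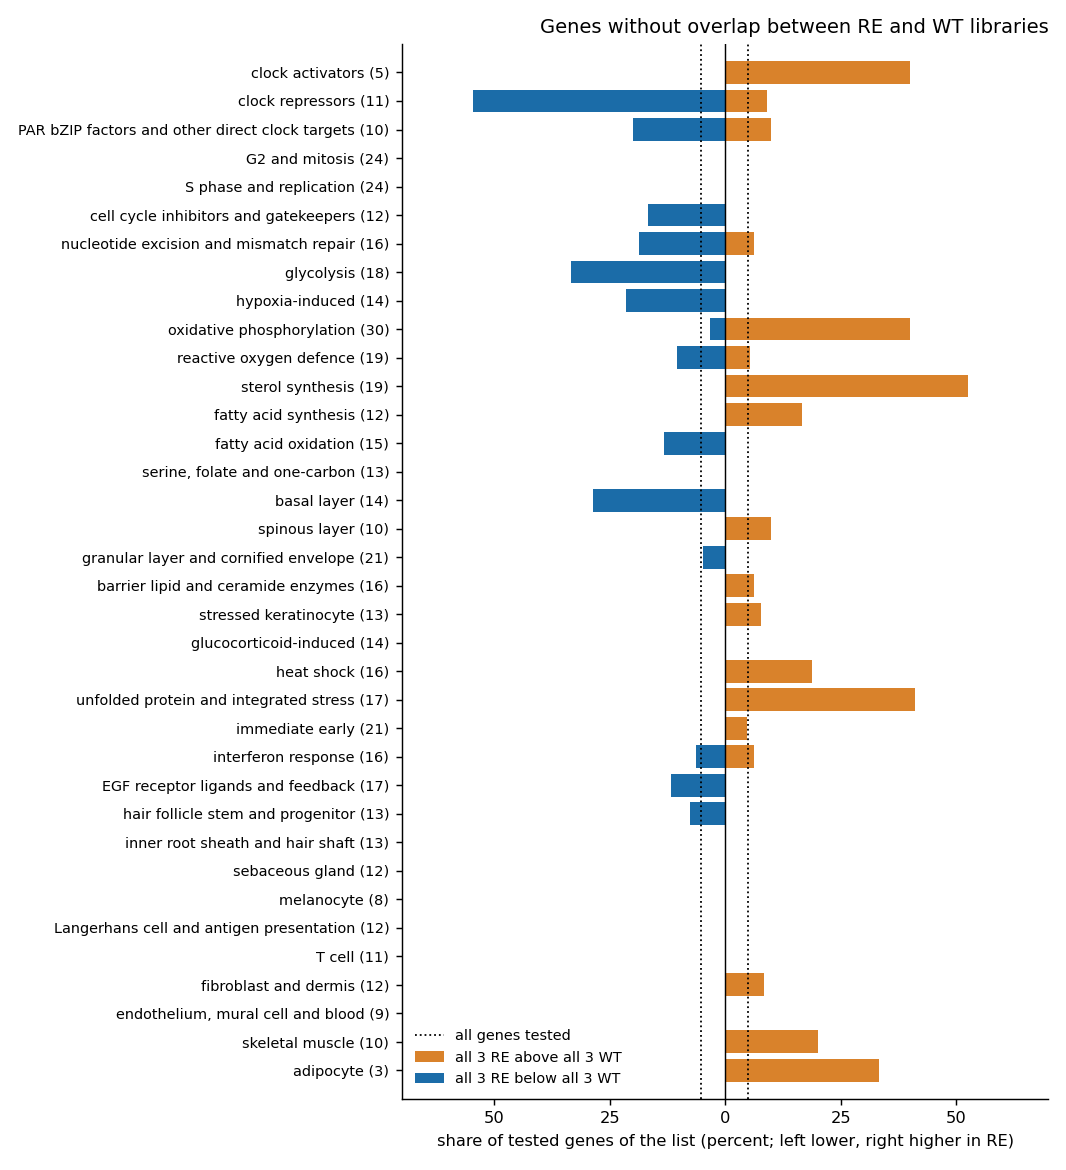
Share of tested genes in each list (percent; number of genes tested in brackets) for which all 3 RE libraries lay above all 3 WT libraries (right) or below them (left) at time point 3, with dotted lines at the shares over all genes, 4.99% and 5.22%. The clock repressors reach farthest to the left, with 6 of 11 genes, and sterol synthesis farthest to the right, with 10 of 19.

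Markers of other cells of the skin did not pass, and their levels varied among mice of the same genotype. The 12 genes of Langerhans cells and antigen presentation summed to between 230.1 and 642.4 CPM in WT and between 223.6 and 506.4 CPM in RE, with replicate 4 highest in both genotypes. All 12 had differences below 0, with a median of -0.23, none without overlap, and the median was 0.079 without RE replicate 3, 0.394 without WT replicate 4 and -0.697 without RE replicate 4. Cd207, which encodes langerin, stood at 15.2, 9.19 and 48.5 CPM in WT and at 12.3, 5.28 and 33.2 CPM in RE. T cell genes summed to between 108.0 and 145.7 CPM in WT and between 73.22 and 142.9 CPM in RE, with a median of -0.203 over 11 genes. That median was 0.017 without RE replicate 3, -0.05 without WT replicate 4 and -0.352 without RE replicate 1.

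Hair follicle stem and progenitor genes had 1 of 13 lower without overlap and a median of -0.056, which ran from -0.191 without WT replicate 1 to 0.23 without WT replicate 4. That gene was Lgr6, also found in interfollicular cells, at 240, 174 and 224 CPM in WT and 131, 140 and 131 CPM in RE, a difference of -0.66 (SE 0.24, adjusted p = 1.0 in edgeR). Sums of inner root sheath and hair shaft genes overlapped between WT and RE, as did those of sebaceous gland, melanocyte, fibroblast, endothelial and adipocyte genes, and the medians of these lists were -0.196, -0.1, -0.087, -0.039, 0.196 and -0.05. With 1 library left out each of these 6 medians took both signs, and that of the inner root sheath ran from -0.708 without RE replicate 4 to 1.286 without WT replicate 4 and was 0.069 as labelled. The endothelial median ran from -0.16 without WT replicate 1 to 0.311 without WT replicate 3. Skeletal muscle genes were near 0 in level, with sums of 3.74 to 3.856 CPM in WT and 4.379 to 8.368 CPM in RE, and a median difference of 0.954 over 10 genes. Without RE replicate 3, the library with the sum of 8.368 CPM, the median was 0.491. Markers of dermis were low, with Col1a1 of fibroblasts between 2.00 and 3.72 CPM in the 6 libraries.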

How the data were processed

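RNA of interfollicular epidermis was sequenced in 72 libraries, and per the labels' protocols the epidermis was separated from back skin with dispase and cell pellets were frozen. The deposited files hold whole-number read counts per gene, 1 file per library, with no normalization by the authors. Tools named in the submitters' processing notes are TopHat2 2.1.1, HTSeq and Trimmomatic, with the builds GRCm38 and mm10. No source used here gives the kit or the strand, so reads of overlapping or antisense genes cannot be told apart. The 5 HTSeq summary lines were left out, and reads in no gene made 15.8% to 17.2% of the 8 libraries.

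Of 46078 genes, 45229 matched GENCODE M21 by identifier, and the others held at most 0.085% of reads in these libraries. Counts were scaled by TMM, and the CPM values use these sizes. Genes were kept by filterByExpr and tested with edgeR 4.0.16 in R 4.3.3, by the quasi-likelihood F-test in a model of 9 groups (WT, KO and RE at time points 1 to 3) over 33 libraries, with 24 residual degrees of freedom and Benjamini-Hochberg adjustment over 18287 genes at 0.05. WT replicate 2, RE replicate 2 and KO replicate 1 of time point 3 were left out. Alternatives were all 8 libraries as labelled, all 12 with KO replicate 1 (chosen after seeing the data), all 18 groups without 2 further libraries of time point 5, other size factors and filters, DESeq2 1.42.0, a replicate block, the compared groups only and leaving out each library.

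Replicate numbers come from the titles. Same-numbered WT and RE libraries deviated together with r of 0.133, 0.112 and 0.498, all over 0.1, which counts as pairing here, although 2 of the 6 cross-numbered pairs had r of 0.307 and 0.136 and the labels give no shared litter or day. The main model has no block. No 2 libraries looked like repeats, and the labels count mice, so the spread is between animals. The test was tested on simulated data. Genes and lists were chosen with earlier results of these data known, and 1 clock gene is not reported here. Named are Arntl and the clock list members, up to 4 members of smallest p per list, and up to 8 genes per interaction. Mt4, Rassf6, Serpinb13 and Man2b2 and the markers Krt14, Krt5, Krt10, Cd207 and Col1a1 were named after their values were seen. Promoter sequences are from RefSeq, GRCm38.p6.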

Additional observations from a re-analysis of the deposited data

Results flagged for a closer look

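In groups of 4 as labelled, 1 library stood apart from the other three by Dixon's test in 5 of the 52 groups of clock genes checked at time point 3, and chance alone flags about 1 in 20. WT replicate 2 was the highest WT library for Cry1, at 39.6 CPM, and for Leo1, at 19.9 CPM, and the lowest for Nr1d2, at 226 CPM. RE replicate 3 was the lowest RE library for Tspan4, at 3.24 CPM, and for Marveld1, at 93.1 CPM.

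The RE minus WT difference at time point 3 differed from that at time point 1, by an interaction term in edgeR at an adjusted p under 0.05, for 8 genes, of which Leo1 did not pass with the replicate block and none passed with all 12 libraries of time point 3 as labelled. The change of the log2 difference was 1.34 for Arntl, 1.68 for Npas2, 0.75 for Leo1 and 1.35 for Ttc9. It was -1.87 for Per3, -1.01 for Cry2, -3.28 for Dbp and -1.91 for Tef. The calls of Npas2, Cry2 and Leo1 were also lost when certain single libraries were left out.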

How the results depend on the processing

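The main comparison held 3 mice per genotype, and its spread was estimated over 33 libraries in 9 groups. The share of depth and of the number of mice in the precision was not tested. The median SE of a log2 difference was 0.191. Whether replicate 2 of WT and of RE are exchanged was not tested, and the labels do not say.

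The count of genes that differed between RE and WT was 2, and 0 with all 8 libraries as labelled, 0 with the compared groups only, 4 with no filter on low counts, 15 in DESeq2 and 5 with the replicate block, which held both genes of the main result. Leaving out 1 library gave 0 to 4. For KO against WT the count of 442 became 669 with all 18 groups, a fit of 67 libraries that also leaves out WT replicate 4 and RE replicate 3 of time point 5, and 214 to 447 with 1 library left out, and was 641 in DESeq2. For RE against KO the count of 72 became 122 with all 8, 112 with all 18 groups, 150 in DESeq2 and 41 to 66 with 1 library left out. The interaction against time point 2 gave 4 in DESeq2 and 0 to 1 with 1 library left out. That against time point 1 gave 3 with all 8 and 5 to 9 with 1 library left out, against 8. With all 12 libraries of time point 3 as labelled, an alternative chosen after seeing the data, the counts were 0 for RE against WT, 86 for KO against WT, 12 for RE against KO and 0 for the interaction against time point 1. With the replicate block Mt4, Rassf6 and Ttc9 gained a call between RE and WT, Leo1 lost its call against KO (adjusted p = 0.0579 in edgeR) and in the interaction, Acaca lost and Dst, Hmgcs1, Idi1 and Itga6 gained one between KO and WT, and Mt4 gained one between RE and KO. No other call in these 5 comparisons changed with it among the 74 genes followed through the alternatives.

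Of 74 genes followed through the alternatives, 66 kept their direction in every alternative run for them. Those that did not were all in the clock lists. Some of the 74 are not named above, and the markers Krt14, Krt5, Krt10, Cd207 and Col1a1 were not among them. No called difference reversed. As labelled, with or without KO replicate 1 in the fit, the reversed differences were Arntl2 at 0.01, Cry1 at -0.06, Nfil3 at -0.27 and Tsc22d3 at -0.02. With 1 library left out, the difference ran from -0.31 to 0.05 for Hlf, -0.18 to 0.06 for Arntl2, -0.15 to 0.05 for Rora, -0.58 to 0.14 for Usp2, -0.18 to 0.01 for Por and -0.29 to 0.68 for Nfil3. The causes were not tested.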
